A study of Mus musculus with 6 samples.

Results

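The genes described here are the translation factors and the cytosolic aminoacyl-tRNA synthetases, measured by RNA-seq in mouse pancreas after deletion of Ptf1a, the transcription factor that maintains acinar cell identity. Members were chosen by symbol. Every gene whose symbol begins with Eif and a digit, or with Eef1 or Eef2, was taken, except the eIF2 kinases and Eif2s3y, and 20 cytosolic synthetases were added by name. In all 73 of the 10245 genes with a value were members, of which 53 were translation factors and 20 were synthetases.

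Translation begins when a small ribosomal subunit carrying eIF1, eIF1A, eIF3 and the eIF2 complex with its initiator tRNA is brought to the capped end of an mRNA by eIF4F. The complex scans to a start codon, eIF5 stimulates the GTPase of eIF2, and eIF5B joins the large subunit, after which eIF2B recharges eIF2 with GTP. Elongation factors then deliver charged tRNAs and move the ribosome along, and the cytosolic synthetases charge tRNAs with their amino acids. The acinar cell, which makes and secretes digestive enzymes, is among the cells with the highest rates of protein synthesis in the body. Phosphorylation of eIF2 slows initiation in general and raises translation of the transcription factor ATF4, whose known target genes include many of the synthetases and the eIF4E inhibitor Eif4ebp1.

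Whole pancreata of 3 control mice, Ptf1a(CreER/+), and 3 Ptf1a cKO mice, Ptf1a(CreER/fl), were compared, with 1 library from each mouse. In both genotypes CreER replaced 1 allele of Ptf1a, so that the control mice kept a single working copy and recombination was driven from the Ptf1a locus itself, which in the adult is active in acinar cells. The study's text adds that its mice with the inducible Cre also carried an EYFP reporter. Mice of both groups received tamoxifen by gavage, 3 times at 0.25 mg/g, and were killed on day 14. Control mice were 4 months old and Ptf1a cKO mice 5 months, so age and genotype cannot be told apart. Each group held 1 male, which was control 1 and cKO 2, and 2 females.

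The labels were checked first. Ptf1a stood at 566, 601 and 652 normalized counts in controls 1 to 3 and at 19.8, 70.1 and 10.2 in cKO 1 to 3. All 3 Ptf1a cKO libraries lay far below the controls, and cKO 2 kept the most (log2 fold change -4.41, SE 0.49, adjusted p 0.00033). Of 12 acinar markers 10 were lower. Their summed level was 9686740 to 12180400 normalized counts in the controls and 2181910, 3808310 and 1237860 in cKO 1 to 3. Duct markers were higher for 4 of 7, with sums of 3977 to 4901 in the controls and 25846 to 110284 in the Ptf1a cKO. Their median log2 fold change was 0.80 and the largest 5.14, so the sum does not describe the typical duct marker. Leukocyte markers were higher for 7 of 8 (sums of 745 to 1333 against 1703 to 4781) and fibroblast markers for 9 of 10 (3058 to 3475 against 5991 to 10563). Endothelial markers were higher for 1 of 8 (sums of 839 to 1054 against 868 to 1107) and endocrine markers for 0 of 8. The endocrine sum set control 3 apart, at 42859 against 12095 and 11435 in the other controls, and in the Ptf1a cKO it was 27333, 5846 and 33414. In these bulk samples fewer cells of a type and less RNA per cell cannot be told apart, and the part of these markers in the results below was not tested.

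All values are read counts normalized by the authors, written here as normalized counts. Differences are log2 fold changes of Ptf1a cKO over control from a limma fit over all 10245 genes, and a gene was called when its adjusted p was under 0.05. Among all genes 16.8% were called lower and 17.1% higher, and the median log2 fold change was 0.04. Direction depends on the scale. On the authors' scale the median gene has 125.0 to 128.5 normalized counts in every library. Rescaling the libraries to equal totals moved the median log2 fold change of all genes to 1.49, and the same with digestive enzymes left out moved it to 0.18, so that changes of whole groups are also given relative to the median gene. With equal totals 9590 genes were called higher and 129 lower, and with the digestive enzymes left out 2568 and 1093, against 1751 and 1724 on the authors' scale.

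Of the 73 members 34 (46.6%) were lower in the Ptf1a cKO and 3 (4.11%) higher, against 16.8% and 17.1% of all genes. The other 36 did not pass the test. The median log2 fold change of the 73 was -0.41, and 60 members had a negative value. For the translation factors the counts were 22 lower, 1 higher and 30 not called of 53 (median -0.32), and for the synthetases 12 lower, 2 higher and 6 not called of 20 (median -0.51). The 3 Ptf1a cKO libraries all lay below the 3 controls for 41 members and all above for 3, where the shares among all genes were 24.3% and 26.5%. Relative to the median gene the medians were -0.36 for the factors and -0.55 for the synthetases, and with equal library totals they were -0.36 and -0.51, although almost every member then had a positive value. Below the median gene lay 47 of 53 factors and 17 of 20 synthetases, or 45 and 16 with equal totals. Rescaling shifts all genes of a library by nearly the same log2 amount. The closeness of these relative values across scalings was therefore fixed in advance and is no further evidence. With equal totals outside the digestive enzymes 11 factors and 6 synthetases were called lower. The calls lost there were those of Eif1ax, Eif2b3, Eif2b4, Eif2b5, Eif3a, Eif3b, Eif3c, Eif3d, Eif4g1, Eef1b2 and Eef2k among the factors and of Farsa, Hars, Kars, Lars, Sars and Tars among the synthetases, all of which kept a negative value. On the authors' scale the number of factors called lower fell to 13 without control 1, to 12 without control 2 and to 13 without cKO 3. For the synthetases it was 4, 5, 7 and 6 without control 1, control 2, cKO 1 and cKO 3 in turn. Across these fits 15 of the 34 lower members kept their call each time, and 0 of the 3 higher members did.

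**Figure D1:**
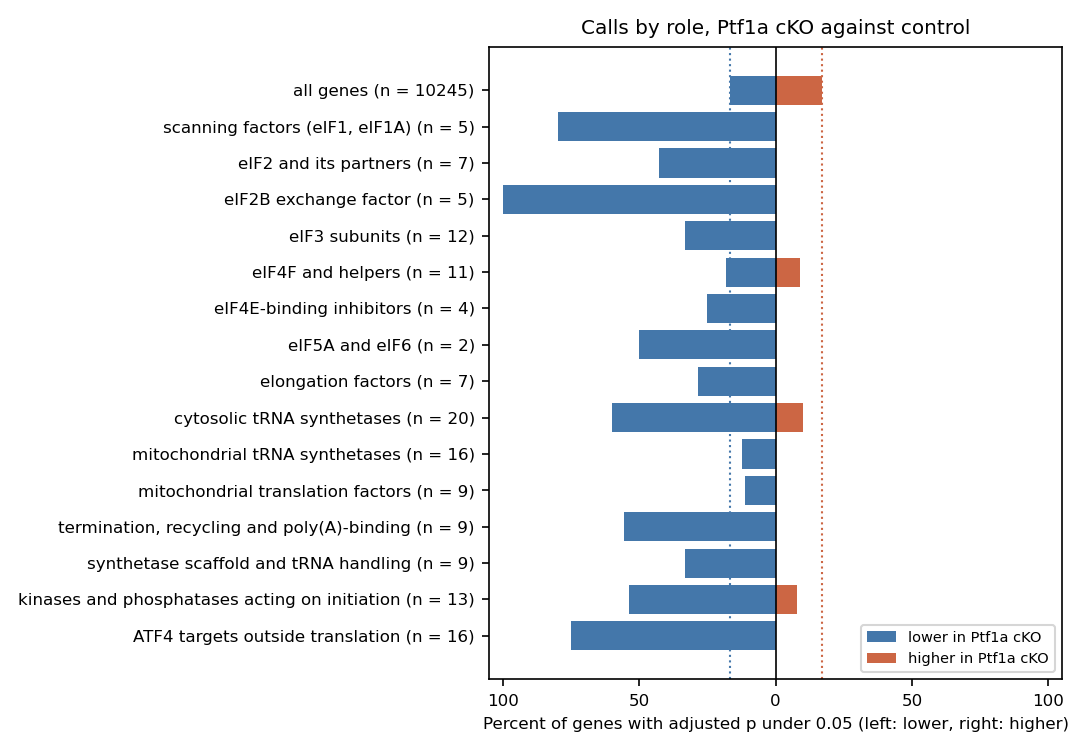
Percent of genes called lower (blue bars, to the left) and higher (orange bars, to the right) in Ptf1a cKO at an adjusted p under 0.05, for all genes, for each role of the members and for 6 neighbouring lists, with dotted lines at the shares of all genes, 16.8% and 17.1%. All 5 eIF2B subunits and 12 of 20 synthetases were called lower on the authors' scale, and with equal library totals 19 synthetases were called higher instead.

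Of the genes for eIF1 and eIF1A, which bind the small subunit during scanning, and their relatives by name, 4 of 5 were lower. The share among all genes was 16.8%. The median log2 fold change of the 5 was -0.70, or -0.74 relative to the median gene. Eif1a, an autosomal gene for eIF1A, stood at 429.6, 441 and 447 normalized counts in controls 1 to 3 and at 215, 273 and 188 in cKO 1 to 3. The groups were apart, and the mean fell by 48.7% from 439 ± 8.70 to 225 ± 43.1 (SD, n = 3 each, log2 fold change -0.97, SE 0.14, adjusted p 0.0012). Eif1ad, which encodes a protein with an eIF1A-like domain, went from 205, 186 and 214 to 114, 142 and 102. Here too all Ptf1a cKO values lay below all controls (-0.76, SE 0.14, adjusted p 0.0041). Eif1, the guardian of start codon choice, was at 357, 359.8 and 420.2 in the controls and at 251, 259 and 188 in the Ptf1a cKO (-0.70, SE 0.15, adjusted p 0.0064). Its groups did not overlap, and cKO 3 was the lowest library. The X-linked Eif1ax changed less, from 221, 252 and 249.6 to 198, 177 and 171 (-0.40, SE 0.12, adjusted p 0.027). It lost its call without control 2, control 3, cKO 2 or cKO 3 (adjusted p up to 0.095), while the other 3 kept theirs in each of these fits. The last of the 5, Eif1b, a close relative of Eif1, stood at 127, 141 and 115 and 133, 142 and 120.3, with overlapping groups and a log2 fold change of 0.05 (95% interval -0.24 to 0.33).

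Among eIF2 and its partners 3 of 7 were lower and 0 were higher, against 16.8% and 17.1% of all genes (median 0.02). Eif2s2, the beta subunit of eIF2, had 419, 465 and 441 normalized counts in the controls and 238, 261 and 180.4 in the Ptf1a cKO. All 3 Ptf1a cKO libraries were lower, by 48.7% on average (log2 fold change -0.97, SE 0.15, adjusted p 0.0014). The alpha subunit Eif2s1, which carries the regulatory phosphorylation site, did not follow. It was at 178, 156 and 147 in the controls and 169, 170.3 and 148 in the Ptf1a cKO, and the groups overlapped (0.02, 95% interval -0.26 to 0.30). Eif5b, the GTPase of subunit joining, went from 1144, 1238 and 1014 to 614, 720.5 and 572 (-0.83, SE 0.13, adjusted p 0.0017). Eif5, the GTPase-activating protein of eIF2, had the highest control mean of the 7 and went from 1236, 1337 and 1387 to 776, 851 and 719 (-0.75, SE 0.12, adjusted p 0.0015). For both genes the groups were apart, and the calls of Eif2s2, Eif5 and Eif5b held with any single library left out. The gamma subunit Eif2s3x and the non-canonical initiator tRNA factors Eif2a and Eif2d had log2 fold changes of 0.09, 0.09 and 0.02, none of them called.

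The exchange factor eIF2B was called lower in all 5 of its subunits, against 16.8% of all genes. The median of the 5 was -0.62, or -0.66 relative to the median gene. Eif2b1, the alpha subunit, stood at 442, 494 and 374 normalized counts in the controls and at 243, 267 and 202 in the Ptf1a cKO. The Ptf1a cKO mean was 45.6% lower with the groups apart (log2 fold change -0.87, SE 0.15, adjusted p 0.0024). For the beta subunit Eif2b2 the values were 572, 447 and 449 and 268, 329 and 242 (-0.80, SE 0.15, adjusted p 0.0040). Eif2b3, the gamma subunit and the least abundant, went from 83.3, 87.1 and 62.3 to 44.0, 63.6 and 41.0, and cKO 2 lay above control 3 (-0.62, SE 0.21, adjusted p 0.043). Eif2b3 was the 1 subunit of the 5 whose groups overlapped. The delta subunit Eif2b4 fell by 33.5% and the catalytic epsilon subunit Eif2b5 by 28.3% (log2 fold changes -0.58 and -0.47, adjusted p 0.021 and 0.033). Calls held for Eif2b1 and Eif2b2 with any single library left out. Eif2b4 lost its call without control 1 or cKO 3 (adjusted p up to 0.075), and Eif2b3 and Eif2b5 lost theirs without control 1, control 2, cKO 1 or cKO 3 (up to 0.14).

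The large scaffold eIF3 changed less evenly, with 4 of 12 subunits lower and 0 higher, against 16.8% and 17.1% of all genes. The median of the 12 was -0.30, or -0.34 relative to the median gene. The 4 were Eif3a, Eif3b, Eif3c and Eif3d, which include the largest subunits of the complex. Eif3a had the highest control mean of the 12 before any correction for length, with 2050.5, 2063 and 1717 normalized counts in the controls and 1322, 1497 and 1286 in the Ptf1a cKO (log2 fold change -0.50, SE 0.13, adjusted p 0.016). Eif3d, a cap-binding subunit, went from 827, 837 and 719.9 to 599, 647 and 492 (-0.46, adjusted p 0.027). For Eif3b the values were 1039, 1066 and 983 and 711, 868 and 709.8 (-0.44, adjusted p 0.022). The groups of all 4 subunits were apart, that of Eif3c with 1132, 1212 and 953 against 827, 835 and 783 (-0.42, adjusted p 0.027). The remaining 8 subunits had log2 fold changes of -0.35 to 0.28, none of them called. At the upper end was Eif3f, with 787, 755 and 715 in the controls and 1031, 941 and 785 in the Ptf1a cKO, where control 1 lay above cKO 3 (adjusted p 0.12). Eif3f passed the test as higher without cKO 3 (log2 fold change 0.39, adjusted p 0.045), with equal totals outside the digestive enzymes (0.43, adjusted p 0.029) and with equal totals (1.77). Eif3a lost its call without control 1, control 2 or cKO 1 (adjusted p up to 0.073), and Eif3b, Eif3c and Eif3d lost theirs without control 1, control 2, cKO 1 or cKO 3 (up to 0.12).

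Of the cap-binding complex eIF4F and its helpers 2 of 11 were lower and 1 was higher (median -0.15, or -0.19 relative to the median gene). The share called lower, 18.2%, was close to the 16.8% of all genes, and 9.09% were higher against 17.1%. The RNA helicase Eif4a1 stood at 187, 211 and 239.9 normalized counts in the controls and 113, 156 and 113 in the Ptf1a cKO. All 3 Ptf1a cKO libraries were lower, by 40.2% on average (log2 fold change -0.73, SE 0.16, adjusted p 0.0076). Its paralog Eif4a2 had 1276, 1383 and 1444 and 1363, 1161 and 1182, with overlapping groups (-0.15, 95% interval -0.42 to 0.12). Eif4g1, the scaffold that bridges the cap and the ribosome, fell from 3346, 3266 and 3117 to 2180.3, 2486 and 2168, and the groups were apart (-0.51, SE 0.12, adjusted p 0.013). The related scaffold Eif4g3 moved the other way, from 345, 369 and 291 to 461, 439 and 495. All Ptf1a cKO values of Eif4g3 lay above the controls, by 38.8% on average (0.47, SE 0.12, adjusted p 0.017). Eif4g2, a scaffold without the eIF4E site and the highest of the 11 in normalized counts not corrected for length, had 4186, 4511 and 3966 against 3374, 3515 and 3261 and missed the threshold (-0.32, adjusted p 0.082). The cap-binding protein Eif4e stood at 118, 89.9 and 89.4 and 91.6, 93.9 and 86.1, and overlapped (-0.11, 95% interval -0.44 to 0.21). Eif4a1 kept its call with any single library left out, Eif4g1 lost it without control 1 or control 2 (adjusted p up to 0.061) and Eif4g3 without cKO 3 (0.054).

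The largest change of the 73 was that of Eif4ebp1, the inhibitor that sequesters eIF4E when mTORC1 is inactive. It stood at 735, 737 and 778 normalized counts in controls 1 to 3 and at 155, 260.0 and 140.1 in cKO 1 to 3. The controls were tightly grouped and the Ptf1a cKO mean was 75.3% lower, at 185 ± 65.3 against 750.1 ± 24.3 (SD, n = 3 each). The log2 fold change of -2.05 (SE 0.21, adjusted p 0.00022) ranged from -2.32 to -1.88 with single libraries left out, and with equal library totals Eif4ebp1 was the 1 member that remained lower (-0.57, adjusted p 0.026). The family's other members did not pass the test. Eif4ebp2 had 235, 248 and 263 against 196, 240.1 and 256 (-0.12, 95% interval -0.41 to 0.18), Eif4ebp3 had a log2 fold change of -0.12 (-0.67 to 0.43), and Eif4enif1, which carries eIF4E to the nucleus, one of -0.06 (-0.38 to 0.26).

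Eif5a, the hypusine-containing factor that frees stalled ribosomes, fell from 1629, 1617 and 1753 to 946, 1068 and 766 normalized counts. The groups were apart, the mean was 44.4% lower and the call held with any single library left out (log2 fold change -0.86, SE 0.14, adjusted p 0.0021). Eif6, which keeps free large subunits from joining, stood at 202, 187 and 159 and 187, 189 and 183 and overlapped (0.03, 95% interval -0.24 to 0.31).

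The 7 genes with an Eef1 or Eef2 symbol were grouped by name, and not all of them encode elongation factors. All 7 had negative log2 fold changes on the authors' scale (median -0.45, or -0.49 relative to the median gene). Of these 2, or 28.6%, were called lower, against 16.8% of all genes. Eef2, the translocase, had 17314, 17358 and 20916 normalized counts in the controls and 14848, 15461 and 10672 in the Ptf1a cKO. The groups were apart and the mean was 26.3% lower, yet the spread kept Eef2 from passing the test (log2 fold change -0.45, SE 0.21, adjusted p 0.12). Eef1a1, the carrier of charged tRNAs, behaved alike, with 10001, 10482 and 13076 against 9035, 8254 and 6927 (-0.47, SE 0.18, adjusted p 0.074). Control 3 was the highest library for both genes. Eef1b2, an exchange factor for eEF1A, passed at 2964, 3088 and 3078 against 2593, 2231 and 1859 (-0.46, SE 0.15, adjusted p 0.037). The other call was Eef2k, the kinase that inhibits eEF2, with 405, 442 and 320.2 against 233, 325 and 258, where cKO 2 lay above control 3 (-0.51, SE 0.16, adjusted p 0.038). Neither call held throughout. Eef1b2 lost it without control 1, control 2, control 3 or cKO 3 (adjusted p up to 0.11), and Eef2k without control 1, control 2, cKO 1 or cKO 3 (up to 0.14). Many of these genes have processed pseudogenes, and reads that aligned to several places were not assigned to genes, so levels of genes such as Eef1a1 and Eif4a1 are uncertain.

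**Figure D2:**
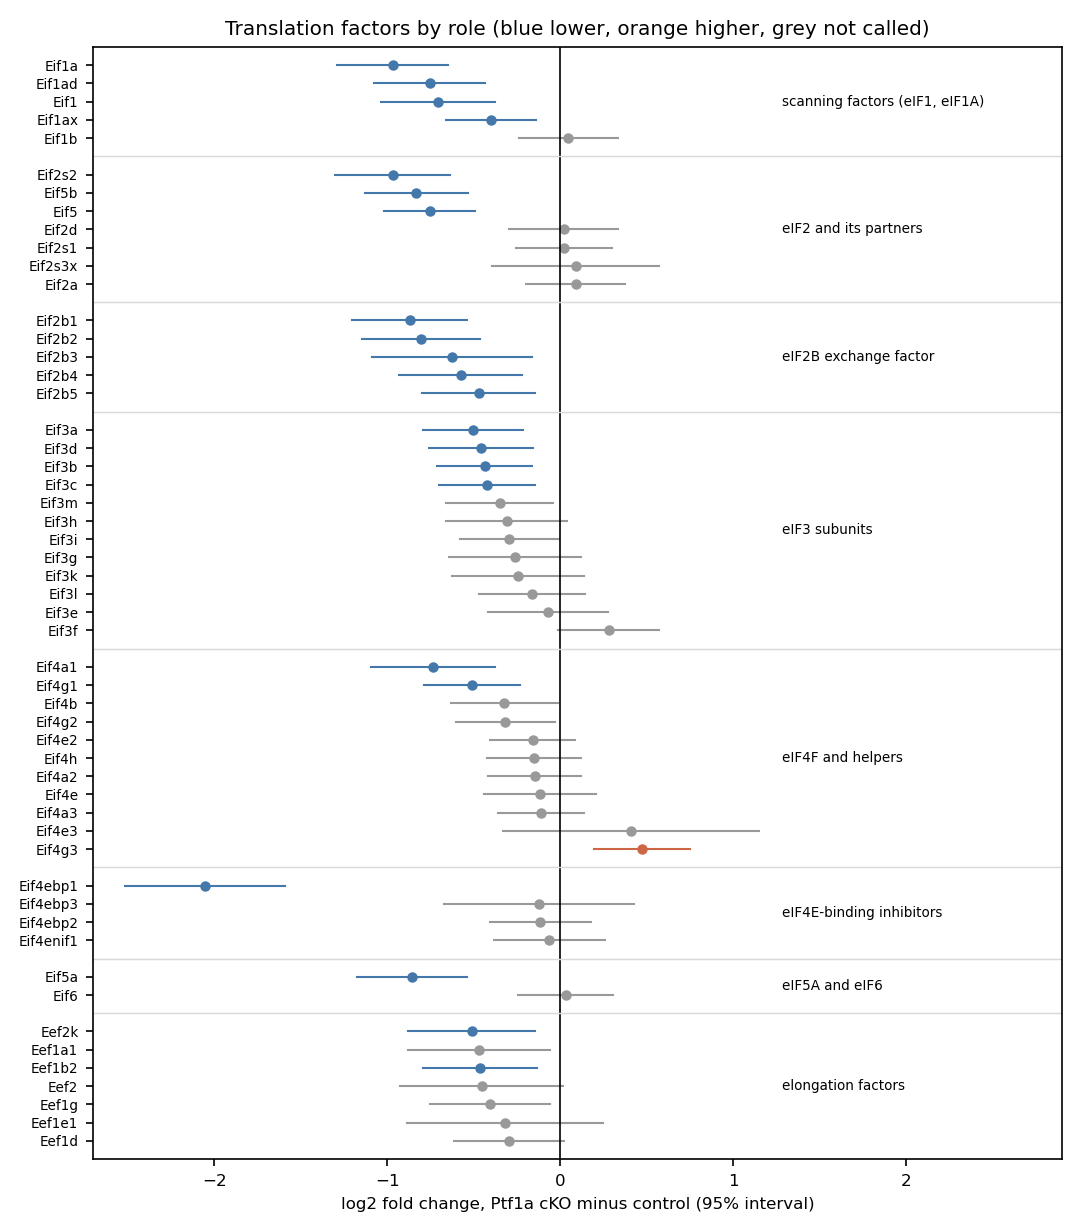
Log2 fold change of each of the 53 translation factors, Ptf1a cKO over control on the authors' scale, with lines for 95% intervals of the limma fit, grouped by role (blue called lower, orange called higher, grey not called). Eif4ebp1 stands alone at -2.05, most eIF3 and eIF4F genes lie between -0.50 and 0, and Eif4g3 is the 1 factor called higher. With equal library totals all but Eif4ebp1 were called higher.

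Of the 20 synthetases 12 were lower and 2 were higher, against 16.8% and 17.1% of all genes, with medians of -0.51 and, relative to the median gene, -0.55. Wars, the tryptophanyl-tRNA synthetase, which is very abundant in pancreas, stood at 3626, 3891 and 2895 normalized counts in controls 1 to 3 and at 1552, 2143 and 1357 in cKO 1 to 3. The groups were apart, and the mean fell by 51.5% from 3471 ± 516 to 1684 ± 409 (SD, n = 3 each, log2 fold change -1.06, SE 0.19, adjusted p 0.0032). Nars, for asparagine, went from 1703, 1665 and 1539 to 854, 991 and 697 (-0.96, SE 0.14, adjusted p 0.0014). Yars, for tyrosine, had 759, 733 and 580.3 against 364, 445 and 319.7 (-0.87, SE 0.16, adjusted p 0.0031). In all 3 genes every Ptf1a cKO library lay below every control, and cKO 2 was the highest of the 3. Mars, for methionine, fell from 1265, 1252 and 835 to 621, 785 and 556 (-0.76, SE 0.19, adjusted p 0.015). For Gars, the glycine enzyme, the values were 1151, 1154 and 799.7 and 637, 746 and 547 (-0.67, SE 0.18, adjusted p 0.017). Control 3 stood well below the other controls in both genes, though still above the Ptf1a cKO.

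Iars, for isoleucine, had 700.4, 725 and 592 normalized counts in the controls and 393, 484 and 402 in the Ptf1a cKO, with the groups apart (log2 fold change -0.65, SE 0.13, adjusted p 0.0054). Lars, for leucine, went from 736, 691 and 468 to 415, 473 and 372, and its groups overlapped because cKO 2 exceeded control 3 (-0.56, SE 0.18, adjusted p 0.038). Tars, for threonine, had 925, 981 and 713 against 568, 663 and 532, with control 3 again the lowest control (-0.56, SE 0.15, adjusted p 0.019). Smaller falls were called for Hars, Kars, Farsa and Sars, the enzymes for histidine, lysine, phenylalanine and serine (log2 fold changes -0.55, -0.49, -0.44 and -0.42, adjusted p 0.032, 0.016, 0.021 and 0.043). Calls of Wars, Nars, Yars and Iars held with any single library left out. Mars and Kars lost theirs without control 1 or control 2 (adjusted p up to 0.068), and Gars also without cKO 3 (up to 0.073). Lars, Tars, Hars and Sars lost theirs without control 1, control 2, cKO 1 or cKO 3 (up to 0.16), and Farsa without control 1, control 3, cKO 1 or cKO 3 (up to 0.069).

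The Ptf1a cKO libraries held more of 2 synthetase transcripts. Qars, for glutamine, rose from 601, 599 and 480.4 to 819, 777 and 717 normalized counts, with all Ptf1a cKO libraries above the controls and a mean 37.7% higher (log2 fold change 0.46, SE 0.13, adjusted p 0.021). Farsb, the beta subunit of the phenylalanine enzyme, whose alpha subunit Farsa fell, rose from 252, 214 and 223 to 292, 294 and 336 (0.41, SE 0.12, adjusted p 0.024). Qars lost its call without cKO 1 (adjusted p 0.069), and Farsb without control 2, control 3 or cKO 3 (up to 0.093). Cars missed the threshold at 612, 582 and 415 against 329, 471 and 309, where cKO 2 lay above control 3 (-0.54, adjusted p 0.061). It passed without control 3 (adjusted p 0.028) or cKO 2 (0.011). Eprs, Aars and Rars, with log2 fold changes of -0.33, -0.28 and -0.28, passed without control 3 (adjusted p 0.016, 0.044 and 0.036), and with equal totals they passed in the opposite direction. Dars and Vars overlapped and stood near 0 (0.02, 95% interval -0.30 to 0.34, and 0.07, -0.29 to 0.42). Dars, Eprs, Iars, Kars, Lars, Mars, Qars and Rars belong to the multi-synthetase complex. Of these 8, 4 were lower and 1 was higher (median -0.41), and of the 12 outside it 8 were lower and 1 higher (median -0.54), a difference that was not tested. Both counts stand beside 16.8% lower and 17.1% higher among all genes.

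**Figure D3:**
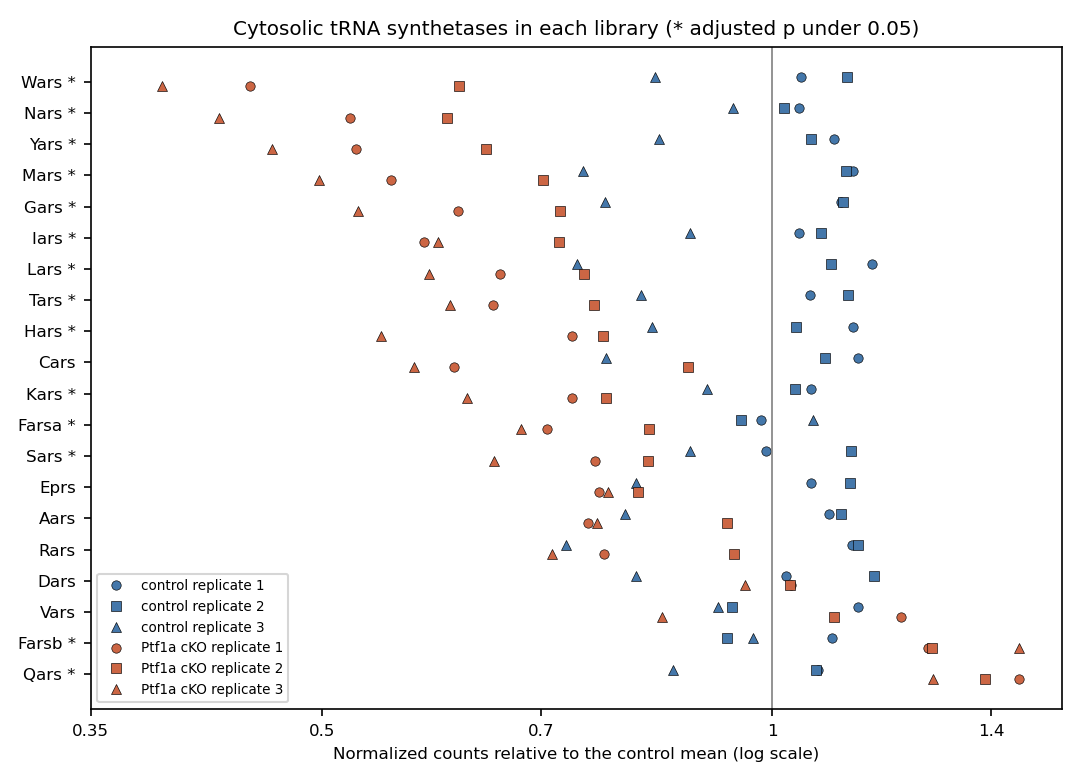
Normalized counts of the 20 synthetases in each library, divided by the gene's control mean (log scale), with blue symbols for controls and orange for Ptf1a cKO, and 1 shape per replicate number. Asterisks mark calls at an adjusted p under 0.05. Wars, Nars and Yars show wide gaps between groups, Qars and Farsb are shifted to the right, and the triangle of control 3 is the lowest control in 18 of 20 genes. Positions are on the authors' scale, and with equal library totals 19 of the 20 would be called higher.

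Promoters of the synthetases were read for TGATGNAA, the core of the composite element bound by ATF4, because many of these genes are known ATF4 targets. RefSeq promoters (GRCm38.p6, 250 bases before to 50 after the start) were at hand for 13 of 20 synthetases and 41 of 53 translation factors. The motif, on either strand, was in 5 of 13 synthetases (38.5%) and 2 of 41 factors (4.88%), and in 4.51% of 27025 genes. Of the 5 synthetases with a match Yars, Gars, Iars and Tars were called lower and 1 was not called. Windows of 30 bases around the matches of the 4 that were lower follow, read along the gene's strand, with the motif or its complement in capitals.
Yars, chr4:129189895-129189924, plus strand: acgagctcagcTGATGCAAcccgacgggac
Gars, chr6:55037960-55037989, plus strand: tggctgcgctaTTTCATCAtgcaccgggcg
Iars, chr13:49682126-49682155, plus strand: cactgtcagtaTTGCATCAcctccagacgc
Tars, chr15:11399655-11399684, minus strand: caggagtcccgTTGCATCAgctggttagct
These 4 matches began between 30 bases before the start of the gene and base 8 of the transcript. The match describes letters in these windows and says nothing of binding. Among the 8 synthetases without a match 4 were lower and 2 higher, against 16.8% and 17.1% of all genes. The E-box CACGTG, which Myc and Max bind and which is not contained in the first motif, was in 4 of 13 synthetases (30.8%), 11 of 41 factors (26.8%) and 8.09% of all genes. Its presence went with 2 lower and 1 higher of 4 synthetases and with 5 lower of 11 factors, and without it the counts were 6 lower and 1 higher of 9 and 14 lower and 1 higher of 30.

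Ratios between 2 genes within a library do not depend on how libraries were scaled. They were taken for 9 pairs of paralogs or partner subunits, chosen after the values were seen, and are given without a test. The ratio of Eif4ebp1 to Eif4ebp2 was 3.13, 2.97 and 2.95 in controls 1 to 3 and 0.794, 1.08 and 0.547 in cKO 1 to 3. Eif4g1 exceeded Eif4g3 by 9.70, 8.86 and 10.7 times in the controls and by 4.73, 5.67 and 4.38 times in the Ptf1a cKO. For the eIF2 subunits Eif2s2 and Eif2s1 the ratio went from 2.35, 2.98 and 3.01 to 1.41, 1.53 and 1.22. For each of these ratios all 3 Ptf1a cKO libraries lay below all 3 controls, which came from other mice. For the subunits of the phenylalanine enzyme, the ratio of Farsa to Farsb went from 1.14, 1.30 and 1.39 to 0.706, 0.822 and 0.591. No ratio here is corrected for gene length, so a value of 1 does not mark equal numbers of transcripts. Per kilobase of exon Farsa and Farsb had means of 64.4 and 87.8 in the controls and of 47.5 and 117 in the Ptf1a cKO. Eif1 over Eif1b, Eif1a over Eif1ax and Eif4a1 over Eif4a2 also lay lower in every Ptf1a cKO library than in any control, with means of 3.01, 1.83 and 0.155 against 1.76, 1.24 and 0.104. Only for Eif4e over Eif4e2 and Eif4ebp3 over Eif4ebp2 did the groups of the 9 pairs overlap.

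**Figure D4:**
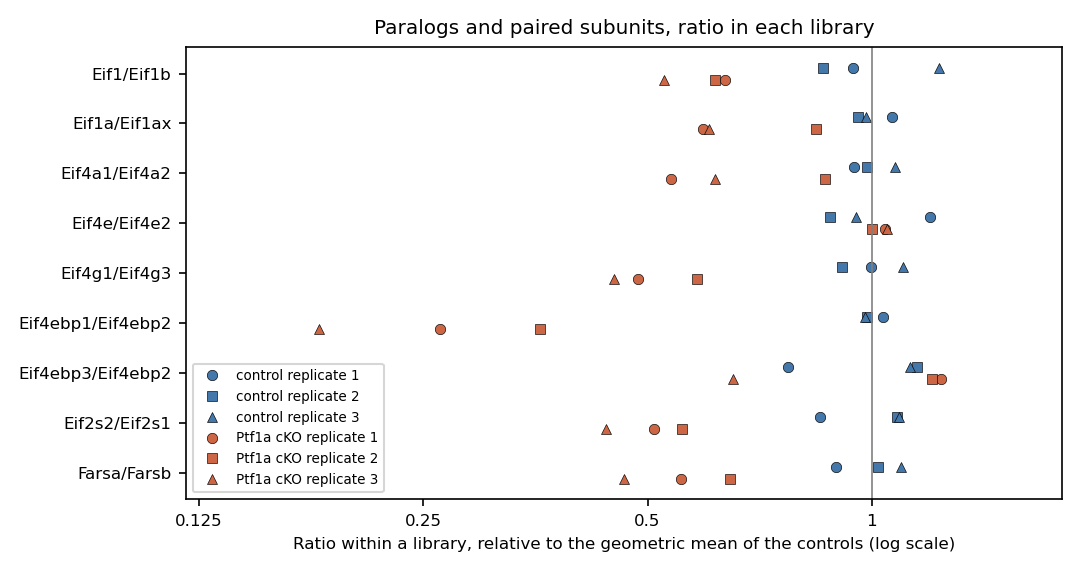
Ratio of 2 paralogs or partner subunits in each library, divided by the geometric mean of the controls (log scale), with blue symbols for controls and orange for Ptf1a cKO. In 7 of 9 pairs all Ptf1a cKO libraries lie below all controls, and Eif4ebp1 over Eif4ebp2 moved most, from a mean of 3.02 to 0.808. Library scaling cannot move these points.

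Libraries took a similar order across the members. Of the 34 lower members cKO 2 was the highest Ptf1a cKO library in 32 and cKO 3 the lowest in 32, and for the 12 lower synthetases the first count was 12. Among all 1724 genes called lower cKO 2 was the highest in 66.7% and cKO 3 the lowest in 64.2%. In the same libraries Ptf1a and the acinar markers were highest in cKO 2 and lowest in cKO 3, as given above. Among the controls, control 3 was the lowest for 18 of 20 synthetases and 27 of 53 factors, against 39.3% of all genes. Summed over the 20 synthetases, normalized counts came to 17978, 18240 and 14101 in controls 1 to 3 and to 11189, 12946 and 9983 in cKO 1 to 3. The groups were apart, and control 3 was also the control with the high endocrine sum and the lowest acinar sum. Over the 53 factors the sums were 64364, 65603 and 70079 against 52787, 53267 and 42700, without a low control 3. As a share of all normalized counts the members rose from a mean of 0.419% to 0.861%, and as a share of the counts outside the digestive enzymes they went from 2.18% to 1.77%.

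Levels between genes were compared per kilobase of exon, using exon lengths of a GRCm38 annotation. Each length is the union of all annotated exons of a gene over its transcripts, which can exceed the length of the expressed mRNA. Ranks between genes are therefore approximate. In the controls Eef2 led with 5574 ± 622 normalized counts per kilobase, followed by Eef1a1 with 4487 ± 663 and Eef1b2 with 1202 ± 27.2 (SD, n = 3). Wars came next, at 1007 ± 150, above all eIF genes. The spreads of Eef1a1 and Eef2 touch and those of Eef1b2 and Wars nearly do, whereas Eif5a, next at 701 ± 31.8, lay below Wars by more than both SDs together. The other synthetases ranged from 46.4 for Eprs to 376 for Nars, with a median of 117 over all 20. Eprs had a control mean of 840 normalized counts, and its low place rests on an exon union of 18102 bases. In the Ptf1a cKO Wars stood at 489 ± 119 and Eif5a at 390 ± 63.7, which overlap. Eif4ebp1, at 342 ± 11.1 per kilobase in the controls, was 11th of the 73 and fell to 84.3 ± 29.7.

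**Figure D5:**
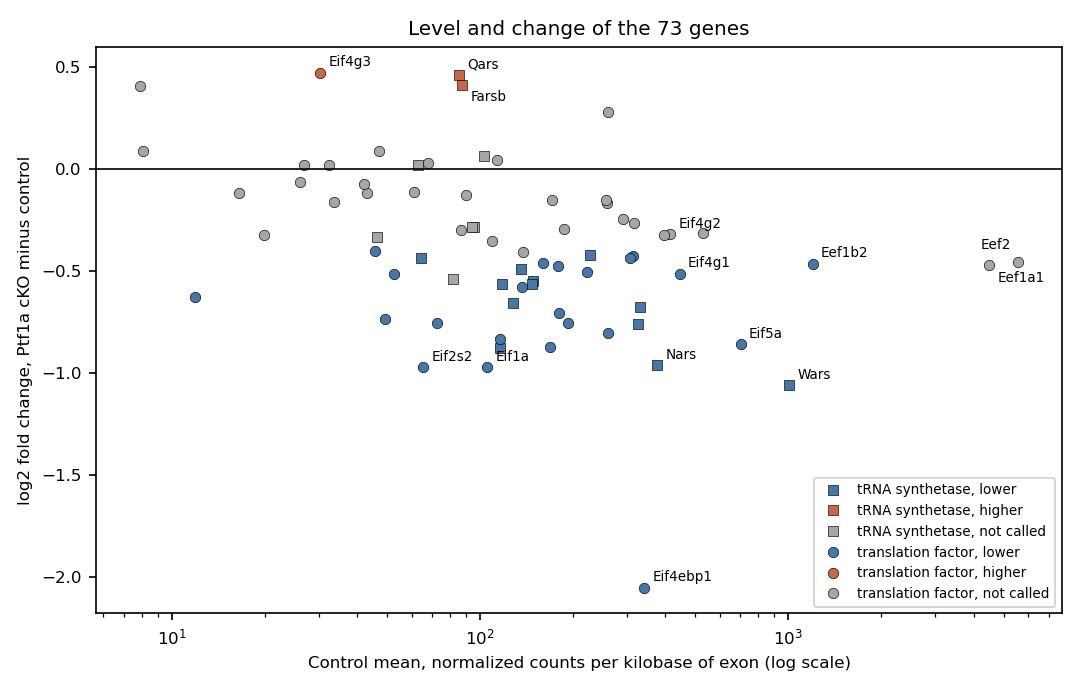
Control level per kilobase of exon (log scale) against log2 fold change for the 73 genes, with squares for synthetases and circles for translation factors (blue called lower, orange called higher, grey not called). Eef2 and Eef1a1 at the far right lie near -0.45 without a call, Wars combines a high level with a fold change of -1.06, and Eif4ebp1 lies lowest. Fold changes are on the authors' scale, and with equal library totals all but Eif4ebp1 turn positive.

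Neighbouring parts of the machinery were counted from lists drawn up by function, with earlier results of these data known. The shares to set beside each list are those of all genes, 16.8% lower and 17.1% higher. Of the mitochondrial synthetases, which charge tRNAs inside the organelle, 2 of 16, or 12.5%, were lower and 0 higher (median -0.15). Both shares lay below those of all genes. These were Mars2, with 52.0 ± 5.62 normalized counts in the controls and 24.4 ± 2.44 in the Ptf1a cKO (log2 fold change -0.99, adjusted p 0.0058), and Lars2 (-2.06, adjusted p 0.00013). Lars2 had 4186, 2935 and 3496 normalized counts in the controls and 722, 1063 and 761 in the Ptf1a cKO. Its control mean of 3539 stood far above that of Iars2, the next of the 16 at 296. Which reads made up the count of Lars2 was not examined. Mitochondrial translation factors were lower for 1 of 9, or 11.1%, also below the share of all genes (median -0.29). It was the elongation factor Gfm1 (-0.55, adjusted p 0.020), which lost its call without control 1, control 2 or cKO 1 (up to 0.078). Termination, recycling and poly(A)-binding genes were lower for 5 of 9 and higher for 0 (median -0.40). The largest fall was in Pabpc4, a poly(A)-binding protein, from 556, 566 and 512 to 137, 235 and 107 (-1.82, adjusted p 0.00071). Paip2b, an inhibitor of poly(A)-binding protein, the recycling ATPase Abce1 and the release factor Etf1 fell by 50.9%, 40.3% and 36.1% (adjusted p 0.0019, 0.0017 and 0.0029). Of the genes for the synthetase scaffold and tRNA handling 3 of 9 were lower (median -0.31), namely the tRNA exporter Xpot (-0.87, adjusted p 0.00082), the scaffold subunit Aimp2 (-0.81, adjusted p 0.0098) and the threonyl-tRNA synthetase-like Tarsl2 (-0.75, adjusted p 0.0029).

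Regulators of initiation were lower for 7 of 13 and higher for 1, against 16.8% and 17.1% of all genes (median -0.47). Mknk1, a kinase of eIF4E, fell from 3001, 2911 and 2632 to 605, 1118 and 587 normalized counts (log2 fold change -1.95, SE 0.23, adjusted p 0.00043). The related kinase Mknk2 was the higher gene, at 188, 174 and 278 and 262, 330.1 and 487 (0.73, SE 0.24, adjusted p 0.043). Its groups overlapped, and it lost its call without control 1, control 2 or cKO 3 (adjusted p up to 0.14). Eif2ak3, the eIF2 kinase PERK of the endoplasmic reticulum, fell from 1585, 1799.5 and 1710.1 to 731, 1032 and 656 (-1.10, adjusted p 0.0016). The other eIF2 kinases did not fall. Eif2ak1, Eif2ak2 and Eif2ak4 had log2 fold changes of 0.15, 0.59 and 0.29, none of them called (adjusted p 0.49, 0.060 and 0.17). Ppp1r15b, which directs a phosphatase to eIF2, fell by 46.8% and Pdcd4, an inhibitor of eIF4A, by 50.1% (adjusted p 0.0017 and 0.0020).

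ATF4 and its known targets outside translation were lower for 12 of 16 and higher for 0, against 16.8% and 17.1% of all genes (median -1.17). Atf4 itself stood at 2199, 2186 and 2475 normalized counts in the controls and 1142, 1457 and 812 in the Ptf1a cKO, with the groups apart (log2 fold change -1.04, SE 0.20, adjusted p 0.0040). Chac1, which degrades glutathione, had 1087, 1139 and 479.7 against 114, 281 and 91.4 (-2.53, SE 0.43, adjusted p 0.0025). Control 3 held the least Chac1 of the controls but the most Atf4, so the order of the controls differed within the list. For both genes cKO 2 was the highest Ptf1a cKO library. Psat1, of serine synthesis, and the stress protein Nupr1 fell by 78.1% and 73.1% (adjusted p 0.00016 and 0.0019). Atf5, a relative of Atf4, fell from 1299.5, 1577 and 1612 to 448, 456 and 518 (-1.65, adjusted p 0.000067). Here control 3 was the highest control and cKO 3 the highest Ptf1a cKO library. The 4 that were not called were Trib3, Asns, Ddit3 and Sesn2, with log2 fold changes of -0.65, -0.33, -0.14 and 0.10 (adjusted p 0.082, 0.24, 0.49 and 0.75). The transcript of Atf4 does not measure its protein, which is set largely by translation.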

How the data were processed

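RNA from whole pancreas of 6 mice was sequenced by the authors as single-end reads. The labels name TopHat2 2.0.4, Bowtie 0.12.7.0, SAMtools 0.1.18.0, HTSeq 0.6.0 and the mm9 genome, and the study's methods name edgeR with TMM scaling, which the authors used. The deposited values are a signal per gene and library, namely read counts that the authors normalized across libraries. They are not whole numbers and have no common step, so that whole reads could not be recovered. The study's methods state the uniquely aligned reads of each library, but the counts behind single values were not at hand, so errors here come from the spread among the 3 mice of each group. Each of the 10245 genes reached at least 27.6 normalized counts in some library. A further 3 entries that name no gene, at 75.7% to 82.6% of a library's normalized counts, most of them for alignments that were not unique, were left out.

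Values were divided by 13.6393, a factor common to all libraries, and log2(value + 0.25) was taken, so that 3.41 normalized counts were added. Fold changes are on this scale and understate changes of low genes. The groups were compared in R 4.3.3 with limma 3.58.1 (lmFit, eBayes with a trend, two-sided, Benjamini-Hochberg over all genes, threshold 0.05). A filter on a scaled mean of 0.25 removed 0 genes. Exact permutation tests of single genes cannot go below 0.1 with 3 against 3 and are not quoted. Figures and promoter searches used Python 3.11.15.

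The members and all lists were chosen with earlier results of these data known. In each role every called member is named. Up to 4 per role (8 for synthetases) with the largest change are given library by library, and the member with the highest mean is named too. Of each neighbouring list up to 4 called genes with the largest change are named. Other genes and the pairs for ratios were chosen after their values were seen. Among these genes were Eif1b, Eif2s1, Eif3f, Eif4a2, Eif4e, Iars2, the uncalled synthetases, eIF2 kinases and ATF4 targets, Mknk2 and Atf4. Because the files use mm9 and the annotation at hand is GRCm38, gene coordinates are not given, and promoter windows are from RefSeq (GRCm38.p6), of which 1 is not reported here. Of the 73 members 54 had a promoter there, Mars by another symbol, and 19 did not (Eif1a, Eif2b3, Eif3h, Eif3i, Eif3e, Eif4g2, Eif4e3, Eif4ebp1, Eif4ebp3, Eif6, Eef1g, Eef1d, Wars, Nars, Lars, Hars, Cars, Rars and Vars). The alternatives were other pseudocounts (0.05 and 1), a filter at 100 normalized counts, 4 other scalings, limma's robust or untrended variance, a replicate block, a term for sex, a threshold of 0.01 and each library left out in turn.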

Additional observations from a re-analysis of the deposited data

How the results depend on the processing

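The outcome depended most on how libraries were scaled. With equal library totals, 9590 genes were called higher and 129 lower, with 52 factors higher and 1 lower and 19 synthetases higher and 0 lower. The medians of both groups turned to 1.13 and 0.97, as the median of all genes moved to 1.49. Digestive enzymes and secreted acinar proteins held a mean of 80.8% of the genes' total in the controls and 50.1% in the Ptf1a cKO. Equal totals therefore raise the other genes in the Ptf1a cKO libraries. Among named genes called in either fit, 57 changed sign with equal totals and 0 under any other setting. The log2 fold changes of the translation factors among them became Eef1b2 1.03, Eef2k 0.97, Eif1 0.78, Eif1a 0.51, Eif1ad 0.71, Eif1ax 1.08, Eif2b1 0.61, Eif2b2 0.68, Eif2b3 0.80, Eif2b4 0.91, Eif2b5 1.01, Eif2s2 0.51, Eif3a 0.99, Eif3b 1.06, Eif3c 1.07, Eif3d 1.03, Eif4a1 0.73, Eif4g1 0.98, Eif5 0.74, Eif5a 0.64, Eif5b 0.66, Eef2 1.04, Eef1a1 1.03, Eif4g2 1.18, Eif4a2 1.35, Eif4e 1.34, Eif4e2 1.32, Eif4ebp2 1.36 and Eif4ebp3 1.30. Those of the synthetases became Farsa 1.04, Gars 0.82, Hars 0.94, Iars 0.84, Kars 1.00, Lars 0.92, Mars 0.73, Nars 0.53, Sars 1.07, Tars 0.93, Wars 0.44, Yars 0.61, Cars 0.95, Eprs 1.16, Aars 1.21 and Rars 1.20, and those of the neighbouring genes Mars2 0.38, Gfm1 0.91, Paip2b 0.44, Abce1 0.75, Etf1 0.85, Xpot 0.63, Aimp2 0.66, Tarsl2 0.70, Eif2ak3 0.40, Pdcd4 0.48, Ppp1r15b 0.58 and Atf4 0.45. With equal totals outside the digestive enzymes 1093 genes were called lower, and the members gave 11 factors lower and 2 higher (Eif4g3 and Eif3f) and 6 synthetases lower, with a median of -0.18 for the factors. A filter at 100 normalized counts left 988 genes called higher and a factor median of -0.40, over fewer genes. At an adjusted p under 0.01 the counts were 832 genes higher and 962 lower, 11 factors lower and 0 higher, and 4 synthetases lower and 0 higher.

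With single libraries left out, 1177 to 1854 genes were called higher and 1182 to 1747 lower, 12 to 21 factors and 4 to 15 synthetases were lower, and 1 to 2 synthetases were higher, with medians of -0.41 to -0.23 for the factors and -0.62 to -0.40 for the synthetases. The cause was not tested. The 2 pseudocounts, the 75th percentile, the median of ratios, limma's untrended or robust variance and sex as a covariate kept every one of these counts within 1.5 times its value and every direction. Single calls lost there were those of Eif2b3 and Sars at the 75th percentile, Eef1b2, Sars and Mknk2 with sex, Mknk2 with robust estimation, and 7 calls without a trend, while Cars passed with sex (adjusted p 0.026).

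Replicate numbers are shared by the groups, but same-numbered mice did not deviate together throughout (correlations of 0.039, 0.13 and 0.14), and 5 of the 6 libraries correlated best with their own number. As a replicate block they gave 1814 genes higher and 1711 lower, 22 factors and 13 synthetases lower, the added gene being Cars (adjusted p 0.023), and changed no other call among the named genes. The deposited values do not give the counts behind them, so no limit from counting is given.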
